A study of Mus musculus with 3 samples.

Results

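The genes described here are Egr1, Egr2, Egr3, Egr4, Ier2, Ier3 and Btg2, immediate early genes that lie outside the AP-1 family. They were chosen by symbol, and all 7 were found among the 19938 genes measured, each with 1 probe set. RNA came from mouse sarcomas of a mixed C57/BL6, 129 and ICR background that carry an EWS/ATF1 transgene switched on by doxycycline, and each group has 1 Affymetrix MoGene-1_0-st-v1 array. By its label, the tumor array carries RNA of a sarcoma removed from a mouse that had received doxycycline for 3 months. By theirs, the high doxycycline array carries RNA of a tumor cell line 24 h after 0.2 microg/ml of the drug was added, and the control array carries RNA of such cells in 0 microg/ml, collected at the same time. The sample descriptions carry 1 number for both cultures and a different number for the tumor. The sources used here do not name the promoter that drives the transgene.

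Immediate early genes are transcribed within minutes of a stimulus, without new protein synthesis. Growth factors act on many of them through the kinase ERK, which phosphorylates ternary complex factors such as Elk1 that sit with serum response factor (SRF) on CArG boxes, and cyclic AMP acts through CREB and ATF1 on cyclic AMP response elements (CRE). EWS/ATF1, the fusion of human clear cell sarcoma, keeps the DNA-binding part of ATF1. The 4 Egr proteins are zinc-finger transcription factors that bind a shared GC-rich motif. The corepressors Nab1 and Nab2 hold Egr1, Egr2 and Egr3 in check. Egr1 is induced by serum, though not alone in this family, Egr2 directs myelination in Schwann cells, Egr3 is needed for muscle spindles, and Egr4 is known mainly from neurons and germ cells. Ier2 encodes a nuclear protein of the immediate early response, Ier3 a stress-induced protein that is also a target of NF-kB, and Btg2 an antiproliferative protein that is also a target of p53.

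Since each group holds a single array, nothing here could be tested against replicates. Folds and counts describe these arrays only, and having so few arrays limits their precision. Values are probe set intensities on a linear scale as deposited, and differences are between log2(intensity + 1) values. A gene was compared, and is called bright, where the brighter array of the pair exceeded that array's median (7.79, 7.83 and 7.97 on the log2 scale for the arrays labelled tumor, high doxycycline and control). The nearest thing to an error was how far 2 or more probe sets of other genes disagreed within a gene. The median of this disagreement was 0.37 on the log2 scale for high doxycycline minus control, 0.38 for tumor minus control and 0.055 for tumor minus high doxycycline. The 90th percentile of this disagreement was 1.42, 1.55 and 0.32 for these comparisons. Identical deposited values on both arrays, found at 21.6%, 16.9% and 34.6% of all probe sets in these comparisons, enter these figures as differences of 0. Without such probe sets the medians were 0.37, 0.39 and 0.067, a repeat chosen after seeing the data.

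The labels were checked against cell type markers, which went against them. Of 69 measured markers of macrophages, lymphocytes, red blood cells, endothelium, muscle, matrix and fat, 14 exceeded the median of the array labelled tumor, 15 that of high doxycycline and 56 that of control. The summed intensity of the 15 macrophage genes was 1711, 2804 and 29912 on these arrays, and that of the 11 matrix and fibroblast genes was 2982, 2316 and 56042. The 10 endothelial genes summed to 1360, 1468 and 10050 (9 of 10 above the median on control), and the 10 skeletal muscle genes to 2226, 2061 and 26530 (10 of 10). The array labelled as tumor tissue therefore held little of the signal of blood, vessel and connective tissue, and the array labelled as untreated cultured cells held much of it. Lyz2, the lysozyme of macrophages, had an intensity of 64.8 on tumor, 68.0 on high doxycycline and 3932 on control, and Cdh5, the cadherin of endothelium, had 106, 135 and 2098. The pigment cell list, by contrast, had 2 of 8 genes above the median on each array. All directions below are between arrays named by their labels. Whether the titles tumor and control were exchanged was not tested. If they were, tumor minus control would keep its size and turn its sign, and the arrays here called tumor and high doxycycline would be the untreated and the treated culture, with Egr1 0.59, Ier3 1.53 and Btg2 0.13 higher on the log2 scale in the treated one. In bulk RNA, fewer cells of a type and less RNA per cell cannot be told apart.

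**Figure D1:**
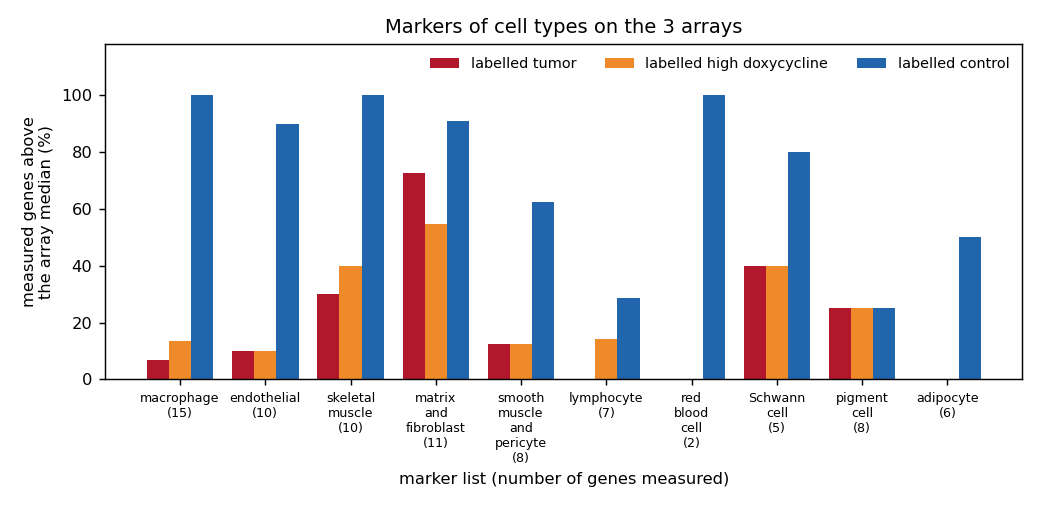
Share of the measured genes of each marker list that exceeded the array median (vertical axis, percent; number of genes in brackets), with 1 bar per array. The macrophage, endothelial, muscle and red blood cell bars are high on the array labelled control (15 of 15, 9 of 10, 10 of 10 and 2 of 2) and low on the other arrays.

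Egr2, Egr4, Ier3 and Btg2 are the 4 of the 7 genes that were matched by symbol to upstream sequences from RefSeq on GRCm38.p6, and those of Egr1, Egr3 and Ier2 are not analysed here. The sequences are shown for the CRE and CArG letters through which immediate early genes are usually induced. Capitals mark every match, on either strand, to the CRE (TGACGTCA), its half-site (TGACG), the CArG box, the ETS motif CCGGAA, the Egr motif GCGNGGGCG and the NF-kB motif. Each full CRE also counts as a half-site on each strand. For Btg2, Egr4 and Ier3 the 250 bases before the annotated start are given. Egr2 has 5 annotated starts, and 30 bases around 1 of its CArG boxes are given.
Btg2, chr1:134079156-134079405, minus strand: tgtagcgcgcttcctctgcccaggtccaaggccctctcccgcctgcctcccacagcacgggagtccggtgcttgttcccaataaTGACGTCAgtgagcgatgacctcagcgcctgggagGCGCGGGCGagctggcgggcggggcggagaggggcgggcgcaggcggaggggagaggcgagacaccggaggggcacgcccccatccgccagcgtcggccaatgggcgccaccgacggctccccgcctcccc
Egr4, chr6:85513590-85513839, minus strand: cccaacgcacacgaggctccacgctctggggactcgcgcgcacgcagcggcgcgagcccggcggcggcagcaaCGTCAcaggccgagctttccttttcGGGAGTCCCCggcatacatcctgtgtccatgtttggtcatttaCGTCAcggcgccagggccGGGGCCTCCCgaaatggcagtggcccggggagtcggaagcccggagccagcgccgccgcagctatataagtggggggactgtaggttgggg
Egr2, chr10:67537793-67537822, plus strand: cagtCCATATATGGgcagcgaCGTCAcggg
Ier3, chr17:35821463-35821712, plus strand: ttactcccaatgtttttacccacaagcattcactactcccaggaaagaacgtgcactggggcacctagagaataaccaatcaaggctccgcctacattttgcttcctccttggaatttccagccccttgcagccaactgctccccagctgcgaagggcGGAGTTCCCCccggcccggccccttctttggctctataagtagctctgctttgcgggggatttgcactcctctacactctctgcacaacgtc

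Btg2 held a full CRE 166 bases before its start and an Egr motif at 131 bases. A full CRE was present in 1.55% of 32851 upstream windows of this length, a half-site in 17.8% and the Egr motif in 4.70%. Windows on 1 chromosome were left out before matching. These shares, and the later counts of genes with CRE or CArG letters, do not cover it. Egr4 held half-sites at 177 and 109 bases and 2 NF-kB matches. The Egr2 stretch was cut around a CArG box, so the box is there by choice, and a half-site lay close beside it. Its window was picked among 5 for its CRE, half-site and CArG matches. The 1.47% of single windows that hold a CArG box is therefore no measure of how rare this match is. The window of another Egr2 start held NF-kB matches and no CArG box, and that of a further start held ETS matches and a different CArG box. Ier3 held 1 NF-kB match (9.55% of windows), 92 bases before its start. These letter matches are descriptions of the sequence and not measured binding.

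All 7 genes were lowest on the array labelled tumor, intermediate on high doxycycline and highest on control. This order held for 2380 of 12111 genes that exceeded the median on any array (19.7%). A gene with identical values on any pair of arrays could not hold it and stayed in that total. For Egr3 the step between tumor and high doxycycline was too small to fix the order: its difference of -0.016 became 0.028 with the arrays set to a common median and 0.019 after quantile normalization, which left 6 genes in the order. The summed intensity of the 7 genes was 2100 on tumor, 3105 on high doxycycline and 5117 on control.

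**Figure D2:**
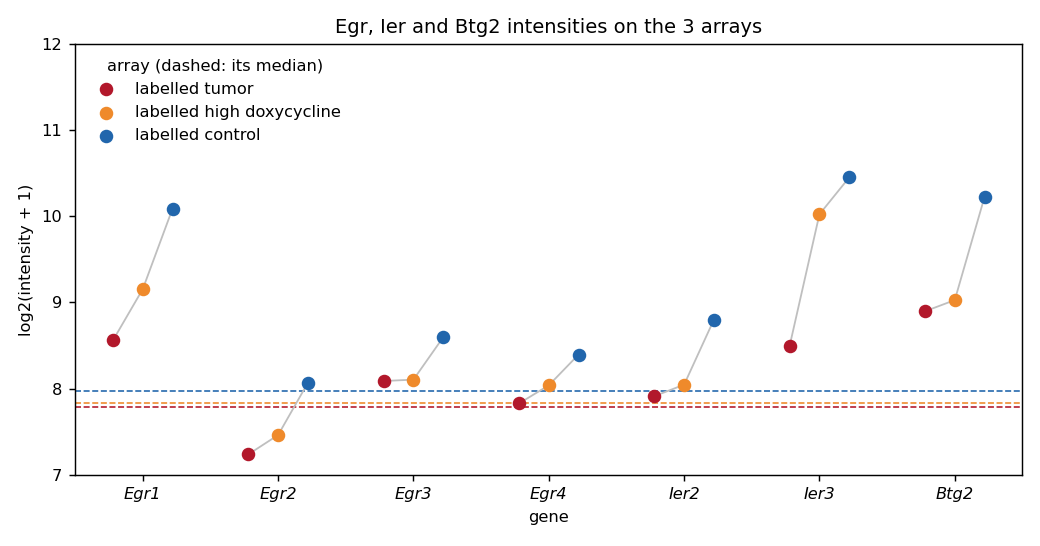
Log2(intensity + 1) of each gene (vertical axis) on the arrays labelled tumor, high doxycycline and control, left to right within a gene, with 1 point per array and dashed lines at the array medians. All 7 genes climb towards the array labelled control, Ier3 mostly between tumor and high doxycycline and the others mostly between high doxycycline and control. Egr2 lies above the median on the array labelled control alone.

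Among the Egr genes, Egr1 differed most. Its intensity was 377 on the array labelled tumor, 569 on high doxycycline and 1088 on control. It was 2.88-fold lower on tumor than on control (log2 difference -1.53), 1.91-fold lower on high doxycycline than on control (-0.93) and 1.51-fold lower on tumor than on high doxycycline (-0.59). Egr1 was thus spread over both steps of the order, with 61.1% of the log2 distance between tumor and control lying between high doxycycline and control.

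Egr2 had intensities of 150 on tumor, 175 on high doxycycline and 267 on control. It exceeded the array median on control alone, and there by 0.096 on the log2 scale, so that it entered the comparisons only through the array on which it was high. Its log2 differences were -0.83 for tumor minus control, -0.61 for high doxycycline minus control and -0.22 for tumor minus high doxycycline, where it was below the brightness filter.

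Egr3 had intensities of 271 on tumor, 274 on high doxycycline and 386 on control. Its log2 difference was -0.51 for tumor minus control and -0.49 for high doxycycline minus control. The arrays labelled tumor and high doxycycline could hardly be distinguished at Egr3, since their difference was smaller than the median disagreement of probe sets.

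Egr4 had intensities of 226 on tumor, 262 on high doxycycline and 336 on control. The log2 differences were -0.57, -0.36 and -0.21 for tumor minus control, high doxycycline minus control and tumor minus high doxycycline. Both Egr3 and Egr4 thus differed by less than 2-fold in every pair. Probe sets of 1 gene disagreed by as much as the Egr4 difference between high doxycycline and control in 51.4% of 666 genes.

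Of the Ier genes, Ier2 had intensities of 240 on tumor, 263 on high doxycycline and 445 on control. It was 1.85-fold lower on tumor than on control, 1.69-fold lower on high doxycycline than on control and 1.10-fold lower on tumor than on high doxycycline. Ier2 followed the Egr2 pattern closely, with a distance of 0.11 between their mean-centred log2 values over the 3 arrays, the smallest among the 21 pairs of these genes.

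Ier3 had intensities of 361 on tumor, 1040 on high doxycycline and 1399 on control. It was the gene of this set with the largest difference in any pair, 3.87-fold lower on tumor than on control (log2 difference -1.95). Unlike the other 6 genes, it also differed by over 2-fold between tumor and high doxycycline (2.88-fold lower on tumor, -1.53), while high doxycycline and control differed by 1.34-fold (-0.43). Of the 11212 genes bright on either of these arrays, 72 (0.642%) were as low or lower on tumor relative to high doxycycline. Of 650 genes with several bright probe sets, 0.154% had probe sets that disagreed as much. This comparison does not use the array labelled control, which held the tissue markers. Of the macrophage list, 2 of 15 genes were bright in it: Cd14, a receptor for endotoxin, with intensities of 158 on tumor and 914 on high doxycycline, and Cd68, a lysosomal glycoprotein, with 248 and 412. The rest of the list lay below the median on both arrays, with log2 differences from -0.37 (Ptprc) to 0 (Ctss). The part of macrophages in the Ier3 difference was not tested.

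Btg2 had intensities of 476 on tumor, 521 on high doxycycline and 1196 on control. It was 2.51-fold lower on tumor than on control (log2 difference -1.33) and 2.29-fold lower on high doxycycline than on control (-1.20). The arrays labelled tumor and high doxycycline lay close together for Btg2 (-0.13), so that 90.2% of the log2 distance between tumor and control lay between high doxycycline and control. For Ier3 that share was 21.9%, and for the other genes it ranged from 61.1% (Egr1) to 96.9% (Egr3). The Btg2 and Ier3 patterns were 0.99 apart, against 0.33 for Egr1 and Btg2.

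By its labels, the comparison of high doxycycline with control asks what a day of doxycycline changes, and the markers above went against these labels. All 7 genes were lower on the array labelled high doxycycline, against 36.9% of 11933 bright genes. Identical values, found at 21.6% of all probe sets, stayed in that total and were not counted as lower. Of the 7, 1 was at least 2-fold dimmer, Btg2, where 8.45% of bright genes were, and 0 were at least 2-fold brighter, where 17.4% were. The median log2 difference of the 7 genes was -0.61, against 0.083 for all bright genes. Egr1 became the second gene past 2-fold after quantile normalization (-1.17). Setting the arrays to a common median adds 0.14 to every difference of this comparison and 0.19 to those between tumor and control. Relative to that shift Btg2 differed by -1.06 and Egr1 by -0.79. In this comparison 14 of 15 macrophage, 9 of 9 endothelial, 9 of 10 skeletal muscle and 10 of 10 matrix genes that were bright were also at least 2-fold dimmer on high doxycycline. Among these dimmer genes, 13 macrophage, 8 endothelial, 6 skeletal muscle and 4 matrix genes lay below the median on high doxycycline. Those genes were bright only through the array labelled control. The part of these markers in the values of the 7 genes was not tested.

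In the comparison of tumor with control, all 7 genes were lower on tumor, against 38.9% of 12010 bright genes. Identical values, found at 16.9% of all probe sets, were again not counted as lower. Ier3, Egr1 and Btg2, 3 of the 7, were at least 2-fold dimmer, where 10.2% of bright genes were, and 0 were at least 2-fold brighter, where 18.5% were. The median of the 7 was -0.89, against 0.075 for all bright genes. Under the common median Ier3, Egr1 and Btg2 differed by -1.77, -1.34 and -1.14. Because both comparisons use the array labelled control, they are not separate evidence of a direction. All 15 macrophage, all 9 bright endothelial and all 10 bright matrix genes were also at least 2-fold dimmer on tumor than on control. Among them, 14 macrophage, 8 endothelial and 2 matrix genes lay below the median on tumor and were bright only through control. The part of this difference in tissue signal in the values of the 7 genes was not tested.

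In the comparison of tumor with high doxycycline, all 7 genes were lower on tumor as deposited, against 40.6% of 11212 bright genes. Genes with identical values on both arrays stayed in that total and were not counted as lower. Identical values were found at 34.6% of all probe sets here, so the share among genes that differed was higher. Of the 7 genes, 6 were bright and 1 was at least 2-fold dimmer on tumor, Ier3, where 1.94% of bright genes were. None was at least 2-fold brighter, where 1.58% were, and the highest of the 7 differences was -0.016. The median log2 difference of the 7 was -0.21, against 0 for all bright genes. For Egr1 2.92% of 650 genes had probe sets that disagreed by as much as its difference, while for Btg2 it was 30.8% and for Ier2 30.2%.

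**Figure D3:**
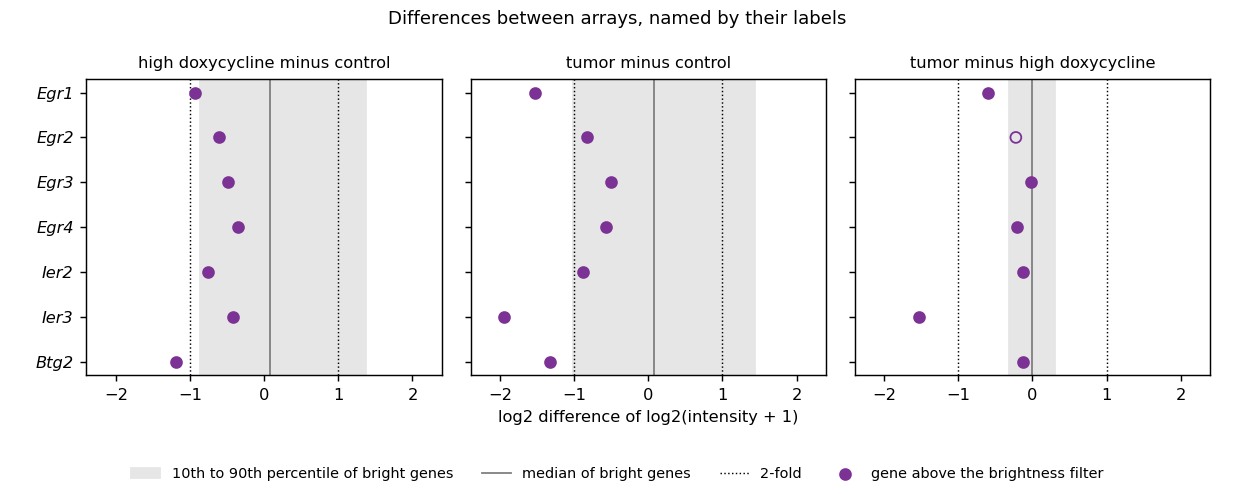
Log2 differences (horizontal axis) of the 7 genes in each comparison, 1 point per gene, with the 10th to 90th percentile of all bright genes in grey and 2-fold as dotted lines. All points lie left of 0, and Egr1, Ier3 and Btg2 lie left of the grey band for tumor minus control, whose lower edge is -1.02. The open circle is Egr2, which was below the brightness filter between tumor and high doxycycline.

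Of 8 measured relatives and corepressors of these genes, 6 were bright and 0 differed by 2-fold in any comparison. Among all bright genes, 10.2% were at least 2-fold dimmer and 18.5% brighter for tumor minus control. For high doxycycline minus control these shares were 8.45% and 17.4%, and for tumor minus high doxycycline 1.94% and 1.58%. With 6 genes, a count of 0 is close to what these shares give, so it does not set the relatives apart. The counts of each list below stand beside these shares. Nab2, the corepressor that Egr proteins themselves induce, had intensities of 1670 on tumor, 1766 on high doxycycline and 1518 on control. Nab1 had 1482, 816 and 889, highest on the array on which Egr1 was lowest. Ier5, a further immediate early response gene, had 425, 374 and 416, and Btg1, the relative of Btg2, had 5862, 3572 and 5026. The median log2 difference of the 6 bright genes was 0.18 for tumor minus control, 0.21 for tumor minus high doxycycline and -0.14 for high doxycycline minus control, the last of which became 0.002 under a common median.

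The factors through which ERK acts at these genes were counted in the same way. Srf had intensities of 640 on both tumor and high doxycycline and 734 on control, and the ternary complex factor gene Elk1 had 1975, 1878 and 1475. Of the 8 genes of this list, 0 were 2-fold dimmer in any comparison and 1 was brighter, Myocd, the myocardin coactivator of SRF, with 1091 on tumor, 579 on high doxycycline and 272 on control (2.13-fold brighter on high doxycycline than on control). In the ERK cascade list 11 of 18 genes were measured, and the others are not analysed here. Of the 11, 0 were at least 2-fold dimmer in any comparison. The kinase gene Map2k1 was 2.55-fold brighter on tumor and 2.47-fold brighter on high doxycycline than on control, and the ribosomal S6 kinase genes Rps6ka3 (2.90-fold) and Rps6ka5 (3.48-fold) were brighter on tumor than on control. Rps6ka5 lay below the median on control. For tumor minus control 10.2% of all bright genes were dimmer and 18.5% brighter, and for high doxycycline minus control 8.45% and 17.4%. With 8 and 11 genes in these lists, counts of 0 dimmer genes are close to what these shares give. The list medians of 0.26 for tumor minus control and 0.30 for high doxycycline minus control became -0.021 and -0.007 after quantile normalization.

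Other immediate early genes split into several patterns. Of 39 measured, 11 were at least 2-fold dimmer on tumor than on control and 0 were brighter (2 under a common median), with a median of -0.75. The shares among all bright genes were 10.2% dimmer and 18.5% brighter. Nr4a3, an orphan receptor gene, was 9.70-fold dimmer, Zfp36l1 and Zfp36l2, which encode RNA-decay proteins, were 5.48-fold and 4.95-fold dimmer, and the clock gene Per1 was 3.98-fold dimmer. Zfp36l1 was bright only through the array labelled control and lay below the median on the other arrays (72.9, 72.9 and 404). Between high doxycycline and control 7 were dimmer (12 after quantile normalization), with Zfp36l2 (5.64-fold), Zfp36l1 (5.48-fold), Per1 (4.33-fold) and the matrix signalling gene Ccn1 (3.03-fold) the largest. The ATF family gene Atf3 was 2.08-fold brighter there, although its log2 difference of 1.06 became 0.74 after quantile normalization. The median was -0.39, and 8.45% of all bright genes were dimmer and 17.4% brighter in this comparison. Of the 39 genes, 11 had the order of the 7 genes, lowest on tumor and highest on control, which 19.7% of 12111 genes had.

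Fos, named in the title of the series, had intensities of 302 on tumor, 1234 on high doxycycline and 1114 on control. Its pattern resembled that of Ier3 in that the large step lay between tumor and high doxycycline (4.07-fold for Fos). Fos did not follow Egr1 and Btg2 between high doxycycline and control, where its log2 difference of 0.15 became -0.12 after quantile normalization. Nr4a3 had a step of the same kind, 10.3-fold, with intensities of 325, 3357 and 3160. Of 38 bright immediate early genes in that comparison, 4 were at least 2-fold dimmer on tumor, Nr4a3, Fos, the small Maf gene Maff (2.33-fold) and the EGF-like growth factor gene Hbegf (2.16-fold), and 1 was brighter, Jun (3.31-fold, with 1396 on tumor, 421 on high doxycycline and 710 on control). Among all bright genes 1.94% were dimmer and 1.58% brighter there.

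Genes in which ERK output is often read gave mixed values. Of 13 ERK feedback genes, 3 were at least 2-fold dimmer on tumor than on control, the ERK phosphatase gene Dusp6 (7.54-fold), the ETS factor gene Etv4 (3.54-fold) and Spry1, an inhibitor of receptor signalling (2.30-fold). Brighter were the ETS factor gene Etv1 (5.32-fold) and Phlda1 (2.04-fold). In this comparison 10.2% of all bright genes were dimmer and 18.5% brighter. Etv4 and Spry1 lay below the median on tumor. After quantile normalization 5 were dimmer and 1 was brighter. Dusp6 had intensities of 455 on tumor, 1794 on high doxycycline and 3435 on control, the same order as the 7 genes. Between tumor and high doxycycline 1 of 12 bright feedback genes was dimmer, Dusp6 (3.94-fold), and 1 was brighter, Etv1 (2.14-fold). Between high doxycycline and control none was dimmer (2 after quantile normalization), and Dusp4, a further ERK phosphatase gene (2.69-fold), and Etv1 (2.48-fold) were brighter.

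**Figure D4:**
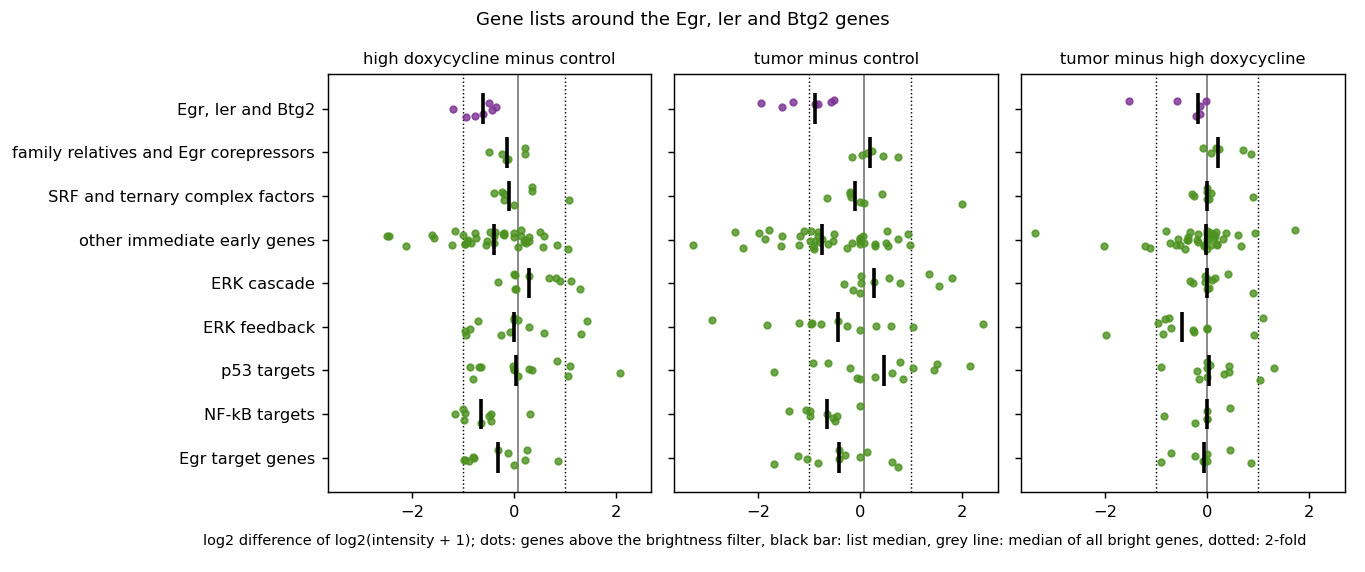
Log2 differences (horizontal axis) of the bright genes of each list, with 1 dot per gene, a black bar at the list median and a grey line at the median of all bright genes. For tumor minus control the bar of the 7 genes is at -0.89 and that of the other immediate early genes at -0.75, while the relatives are at 0.18, the SRF factors at -0.096 and the ERK cascade at 0.26.

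Btg2 and Ier3 are each also a target of another pathway. Of the p53 target list 14 of 16 genes were measured, and 4 were at least 2-fold brighter on tumor than on control, Ei24 (4.46-fold), Phlda3 (2.84-fold), Ccng1 (2.71-fold) and Sesn1 (2.06-fold), and 1 was dimmer, the growth arrest gene Gadd45a (3.25-fold). Its median was 0.46, and the part of p53 in the Btg2 values was not tested. For tumor minus control 10.2% of all bright genes were dimmer and 18.5% brighter. High doxycycline exceeded control at least 2-fold for Ei24 (4.26-fold), Phlda3 (2.09-fold) and Ccng1 (2.14-fold), and none was dimmer there, although after quantile normalization 1 was brighter and 1 dimmer. Between tumor and high doxycycline Trp53inp1 (2.48-fold) and Sesn1 (2.06-fold) were brighter. Of 9 bright NF-kB target genes, 2 were at least 2-fold dimmer on tumor than on control, the chemokine genes Cxcl1 (2.63-fold) and Ccl7 (2.11-fold), and the median was -0.65. Both lay below the median on tumor. Between high doxycycline and control 1 was dimmer, Cxcl1 (2.24-fold), with the same median. Between tumor and high doxycycline the median of 6 bright NF-kB targets was 0 and 0 differed by 2-fold, but 3 of the 6 had identical deposited values on both arrays. The part of NF-kB in the Ier3 values was not tested.

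Genes reported as Egr targets gave mixed values, and whether they followed the Egr genes was not tested. Of 11 bright genes, 3 were at least 2-fold dimmer on tumor than on control, Gadd45a (3.25-fold), the platelet-derived growth factor gene Pdgfb (2.33-fold) and Tgfb1, a transforming growth factor gene (2.06-fold), and the median was -0.43. Pdgfb lay below the median on tumor. Among all bright genes 10.2% were dimmer in this comparison. Nab1, F3 and Nab2 were higher on tumor than on control, by 0.74, 0.63 and 0.14 on the log2 scale, and F3 lay below the median on control. Between high doxycycline and control 0 differed by 2-fold as deposited, 1 was brighter under a common median, and 3 were dimmer and 1 brighter after quantile normalization. The median was -0.30 there and -0.059 for tumor minus high doxycycline. The latter was about the size of the median probe set disagreement of that comparison, 0.055. Of the myelin genes linked to Egr2, Pmp22 had intensities of 11656 on tumor, 13198 on high doxycycline and 10587 on control and Mbp had 154, 164 and 258, and in the Schwann cell list 0 of 4 bright genes reached 2-fold in any comparison with the array labelled control.

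The genes most like each member that differed by 2-fold were found by the distance between mean-centred log2 values over the 3 arrays. They were sought among 11628 genes that exceeded the median on at least 1 array. Nearest to Egr1 were Abtb2 (0.014), Nfkbiz (0.018), itself in the immediate early list, and C2cd4b (0.032), and 16 genes lay within 0.1. Nfkbiz had intensities of 305, 454 and 883 on tumor, high doxycycline and control. Nearest to Ier3 were Osbp2 (0.024), Anln (0.073) and Plk1 (0.10), the last of these a mitotic kinase gene and Anln a cytokinesis gene, and 2 genes lay within 0.1. Anln and Plk1 lay below the median on tumor, with intensities of 109 and 218. Nearest to Btg2 were H2-M9 (0.013), Etl4 (0.017) and Ccn4 (0.020), and 79 genes lay within 0.1. H2-M9 and Etl4 entered only through the array labelled control, on which they were high (253 and 331). Both lay below the median on tumor (99.7 and 133) and on high doxycycline (108 and 146). With 3 arrays such likeness is a description of few values.

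Genes with the CRE letters upstream were set beside the Btg2 values. Of 296 bright genes with a full CRE in an upstream window, 4.73% were at least 2-fold dimmer and 23.6% brighter on tumor than on control, with a median of 0.25. Of 9309 bright genes with a window and no full CRE, 9.12% were dimmer and 18.6% brighter, with a median of 0.11. Btg2, at -1.33, was thus 1 of 14 dimmer genes among those with a full CRE. Between high doxycycline and control 3.04% of the genes with a full CRE were dimmer (9 genes, Btg2 among them) and 20.9% brighter, against 7.58% and 17.6% without. Of 137 bright genes with a CArG box, 11.7% were dimmer on tumor than on control, against 8.95% of those without, and the difference was not tested. Between tumor and high doxycycline 1.72% of the genes with a full CRE were dimmer, against 1.82% of those without.

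**Figure D5:**
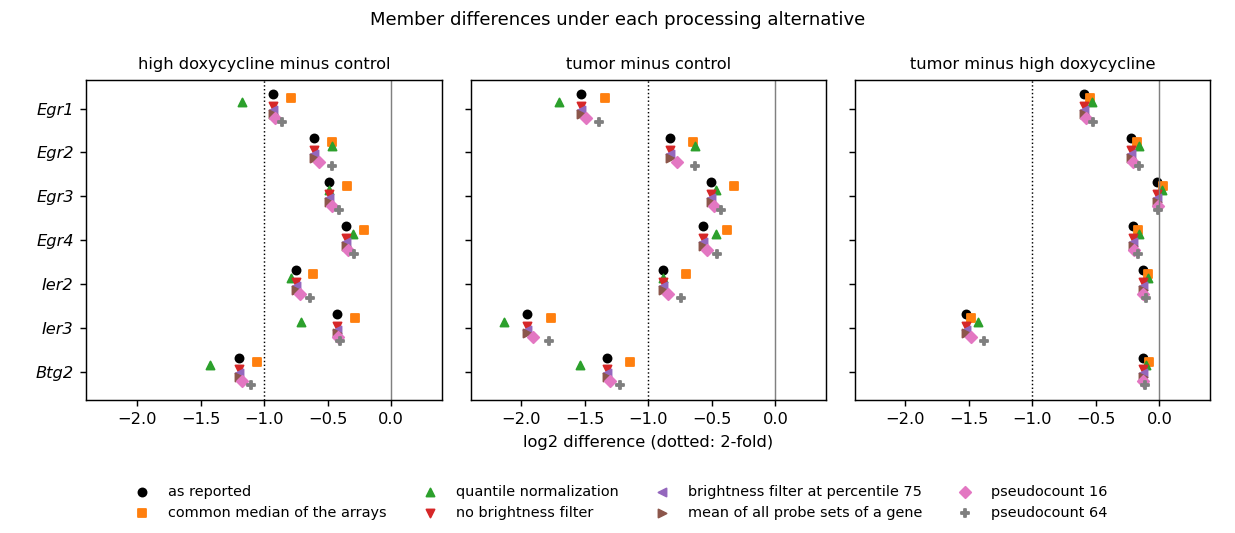
Log2 difference (horizontal axis) of each gene as reported and under 7 processing alternatives, 1 symbol per alternative. The symbols of a gene stay on 1 side of 0 in every panel except Egr3 between tumor and high doxycycline (-0.016 as reported, 0.028 at most), and Egr1 crosses the dotted 2-fold line between high doxycycline and control after quantile normalization (-1.17).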

How the data were processed

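RNA was purified on columns and biotin-labelled for MoGene-1_0-st-v1 arrays, per the labels' protocols. The authors deposited 1 linear intensity per probe set and array (28856 probe sets, 20.7 to 26412). How the background was corrected, and how probes were summarised and normalized, is not stated in the labels or the file. The 3 arrays shared exactly the same value at 15.0% of probe sets, and tumor and high doxycycline at 34.6%. Groups followed the sample titles.

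Probe sets were named through the platform annotation (21789 with 1 symbol, 1621 with several, 5446 with none; the last 2 kinds were left out). Entrez numbers matched RefSeq (GRCm38.p6) for 21698, and 0 symbols changed. Where a gene had several probe sets (999 genes), the brightest by mean was taken. The pseudocount was 1, and a call was a log2 difference of at least 1 in a bright gene. No p-value was computed. The procedure was run on simulated data with changes well past 2-fold and noise below the spread of the differences between tumor and control. That run therefore does not bear on calls near 2-fold. Python 3.11.15, numpy 2.4.6 and pandas 2.3.3 were used.

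The genes, lists and alternatives were chosen with earlier results of these data known. Named were the 7 genes, Fos, up to 4 genes of a list differing by 2-fold in a comparison (largest first), up to 2 of the brightest markers, and the 3 nearest patterns; remaining genes were chosen after their values were seen. Alternatives were quantile normalization, a common median, a brightness filter at percentile 75 or none, the mean of probe sets, and pseudocounts of 16 and 64.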

Additional observations from a re-analysis of the deposited data

How the results depend on the processing

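Under 7 alternatives, of which both filters and the mean of probe sets cannot move a gene with 1 probe set, the 21 differences of the 7 genes kept their direction except that of Egr3 between tumor and high doxycycline (0.028 under a common median, 0.019 after quantile normalization). After quantile normalization 2 genes instead of 1 were at least 2-fold dimmer on high doxycycline than on control. With a brightness filter at percentile 75, the bright genes at least 2-fold dimmer numbered 569 for high doxycycline minus control, 691 for tumor minus control and 144 for tumor minus high doxycycline, and 103 were brighter in the last, since fewer genes were compared. That filter left 3, 3 and 1 of the 7 genes. Of 147 values of the 7 genes under alternatives, 6 moved by more than the median probe set disagreement, all between tumor and high doxycycline (Egr1, Egr2 and Ier3, under quantile normalization and a pseudocount of 64). No paired analysis was possible because each group has 1 array. With a single array per group and 1 probe set per gene, no error of a single value can be given. Signal over background was not analysed here, and on tumor and high doxycycline Egr4 and Ier2 lay at most 0.21 above the array medians on the log2 scale, and Egr2 below them.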
